A study of Rattus norvegicus with 10 samples.

Results

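Heat shock proteins and chaperones were examined in hippocampal tissue of rats made epileptic by electrical stimulation of the amygdala. The genes were 10 named members: the small heat shock proteins Hspb1 and Hspb8, the Hsp70 proteins Hspa5 and Hspa8, their larger relative Hsph1, the Hsp90 proteins Hsp90aa1 and Hsp90b1, the J-domain protein Dnajb1, the mitochondrial chaperonin Hspd1 and the stress enzyme Hmox1. A member was the row of the count matrix whose RefSeq transcript carried the rat symbol, and where a symbol had several rows the one with the highest mean count was taken. In this way 9 of the 10 members had a row, and no row was matched to Dnajb1. All 9 passed the filter on low counts, each on its sham counts alone, and they stood among 22447 tested rows, called features, of 32041.

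Messenger RNA was sequenced from 10 male Sprague-Dawley rats, an outbred strain, in left dorsal hippocampal tissue that contained the CA3 field and the dentate gyrus. All 10 animals carried an electrode in the left lateral amygdala, and the 5 sham rats (rats 1 to 5), matched for age, received no current. The 5 stimulated rats (rats 6 to 10) received trains of 1-ms pulses of 400 µA at 60 Hz for 30 min after 2 weeks of recovery, which evoked status epilepticus, a seizure that does not stop by itself, and diazepam (20 mg/kg) ended it 1.5 to 2 h later. Tissue was taken 3 months after status epilepticus, from each rat separately, so a replicate was 1 rat. By its methods the study used fewer stimulated rats than are labelled, without naming the one left out, so all 10 were kept and each was also left out in turn. The tissue was whole, so fewer cells of a type and less RNA per cell cannot be told apart.

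Heat shock proteins bind proteins that are unfolded or misfolded. Small heat shock proteins hold them without using ATP, Hsp70 proteins refold them with ATP together with J-domain proteins and exchange factors, Hsp90 proteins mature signalling proteins and receptors, and Hspd1 forms the folding chamber of mitochondria. In stressed cells the heat shock factor Hsf1 switches on many of these genes through heat shock elements, inverted repeats of the letters GAA, while the chaperones of the endoplasmic reticulum answer to the unfolded protein response. In the brain HSPB1 protein is known as a marker of reactive astrocytes after seizures or lack of oxygen.

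The promoters of 4 members whose levels are described first or most are shown as the 250 bases before the RefSeq start, read on the strand of the gene in the GRCr8 assembly, which is not the build used for the counts. Hspb1 lies at chr12:26432302-26432551 on the minus strand, Hspb8 at chr12:45837058-45837307 on the plus strand, Hsph1 at chr12:10427118-10427367 on the plus strand and Hspa5 at chr3:38452766-38453015 on the plus strand. Capitals mark a match to the heat shock element GAANNTTCNNGAA in Hsph1, to its shorter form GAANNTTC in Hspb1 and Hspb8, and to the endoplasmic reticulum stress element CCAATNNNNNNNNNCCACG in Hspa5.
Hspb1: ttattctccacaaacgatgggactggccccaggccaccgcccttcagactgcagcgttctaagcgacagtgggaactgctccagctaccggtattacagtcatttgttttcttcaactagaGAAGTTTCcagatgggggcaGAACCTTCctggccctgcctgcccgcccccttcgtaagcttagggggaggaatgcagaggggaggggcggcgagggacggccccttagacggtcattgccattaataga
Hspb8: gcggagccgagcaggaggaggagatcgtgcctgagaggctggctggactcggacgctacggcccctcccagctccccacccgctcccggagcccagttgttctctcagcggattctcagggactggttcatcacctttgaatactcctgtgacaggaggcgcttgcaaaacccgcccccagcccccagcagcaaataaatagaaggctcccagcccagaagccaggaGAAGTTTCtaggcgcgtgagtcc
Hsph1: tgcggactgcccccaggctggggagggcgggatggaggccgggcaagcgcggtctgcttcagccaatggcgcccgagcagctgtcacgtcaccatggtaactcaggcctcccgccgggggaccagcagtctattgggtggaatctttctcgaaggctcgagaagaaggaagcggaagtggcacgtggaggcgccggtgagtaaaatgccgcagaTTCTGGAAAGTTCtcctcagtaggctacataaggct
Hspa5: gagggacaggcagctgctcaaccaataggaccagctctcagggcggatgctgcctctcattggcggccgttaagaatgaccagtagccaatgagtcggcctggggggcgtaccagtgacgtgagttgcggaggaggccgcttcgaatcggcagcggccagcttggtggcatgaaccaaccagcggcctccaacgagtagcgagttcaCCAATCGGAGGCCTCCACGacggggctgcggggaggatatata

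The promoter table held 8 of the 10 members (not Hsp90aa1 and Hmox1), and both strands were searched. The full heat shock element was found in 3 of the 8, Hspa8, Hsph1 and Hspd1, against 0.597% of all 27457 promoters of the same length. The shorter form, which lies within the longer one, was found in 6 of the 8 (the same 3 with Hspb1, Hspb8 and Dnajb1) against 7.02% of all promoters. Hspb1 held it at bases 129 to 122 and again at bases 109 to 102 before the start, Hspb8 at bases 23 to 16. The endoplasmic reticulum stress element was found in 2 of the 8, Hspa5 and Hsp90b1, both chaperones of that compartment, against 0.0765% of all promoters. In Hspa5 it lay at bases 43 to 25 before the start, and Hsp90b1 held it on either strand. The antioxidant response element TGACNNNGC matched 1 of the 8 (Dnajb1) against 10.2% of all promoters, and 0 of the 8 held the cyclic AMP response element TGACGTCA (1.70% of all) or the AP-1 site TGANTCA (6.36% of all). The short CCAAT box, which is also the first part of the endoplasmic reticulum stress element, was found in 5 of the 8 against 34.3% of all promoters. These matches describe letters in a window and not sites shown to be used.

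Aligned counts ranged from 13552309 to 24086059 per rat. The share of unaligned reads was 32.8 to 37.1% in sham rats. It was 41.4, 42.9 and 45.1% in stimulated rats 8, 9 and 10, above every sham rat. Rat 6 lay within the sham range and rat 7 below it. The share of ribosomal RNA was 1.82 to 12.2% in sham rats and 3.03 to 5.64% in stimulated rats. The part of the unaligned share in the group differences was not tested. Stimulated rat 7 stood apart from the rest: it held the highest value of all 10 rats for 17.7% of the tested features, where the other rats held it for 4.51 to 13.6%. Of 12 immediate early genes, which neurons switch on after firing, 10 were higher in stimulated rats at an unadjusted p-value under 0.05. Of all features, 6.7% were higher at that threshold. The mean log2 level of the 12 genes was 5.09, 5.33 and 5.22 log2 CPM in rats 7, 9 and 10 and 2.98 to 3.45 in the other 7 rats. Of the markers of the labelled tissue, 4 of 6 for dentate granule cells and 4 of 6 for CA3 pyramidal cells were tested. At that threshold 0 of either list differed. Summed dentate markers were 266.9 to 333 CPM in sham rats and 273.7, 210.8, 271.9, 393.6 and 226.9 CPM in rats 6 to 10. Rats 7 and 10 were thus below every sham rat and rat 9 above them. Summed CA3 markers were 299.6 to 334.5 CPM in sham rats and 290.3, 319.3, 333.9, 288.4 and 387.5 CPM in rats 6 to 10.

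Across the members, levels were higher on average in the stimulated group for 9 of 9 genes, against 52.2% of all tested features. The difference was largest for the small heat shock proteins and Hmox1. It was least for Hspd1, where it changed sign without rat 7. Rat 7 held the highest value for 8 of the 9, against 17.7% of all features. Levels are given as CPM, counts per 1000000 counts of the library after edgeR's trimmed mean scaling, and differences as log2 fold changes of stimulated over sham rats with a standard error (SE). The quasi-likelihood test of edgeR called 0 of 9 members and 0 of all 22447 features (0%) at an adjusted p-value under 0.05. At an unadjusted p-value under 0.05, 6 of 9 members were higher and 0 lower, where 1505 features (6.7%) were higher and 709 (3.16%) lower. Without rat 7, 5 of 9 members were higher at that threshold, against 4.74% of features. The members were chosen with earlier results of these data known, so these shares are no test of them as a set. The groups did not overlap for 0 of 9 members, against 1.29% of features. The median log2 fold change was 0.32 over the members and 0.01 over all tested features. The likelihood ratio and exact tests of edgeR and DESeq2 called 119, 90 and 33 features at an adjusted p-value under 0.05. Of the members, Hspb1, Hspa5 and Hsph1 are in the study's own edgeR list of genes upregulated in this model. That list was cut on unadjusted p-values, at a threshold stricter than 0.05, and by the methods it used fewer stimulated rats. Here the quasi-likelihood test called 0 features at an adjusted p-value under 0.05 whichever rat was left out. The reason for the difference from the study's list was not tested.

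**Figure D1:**
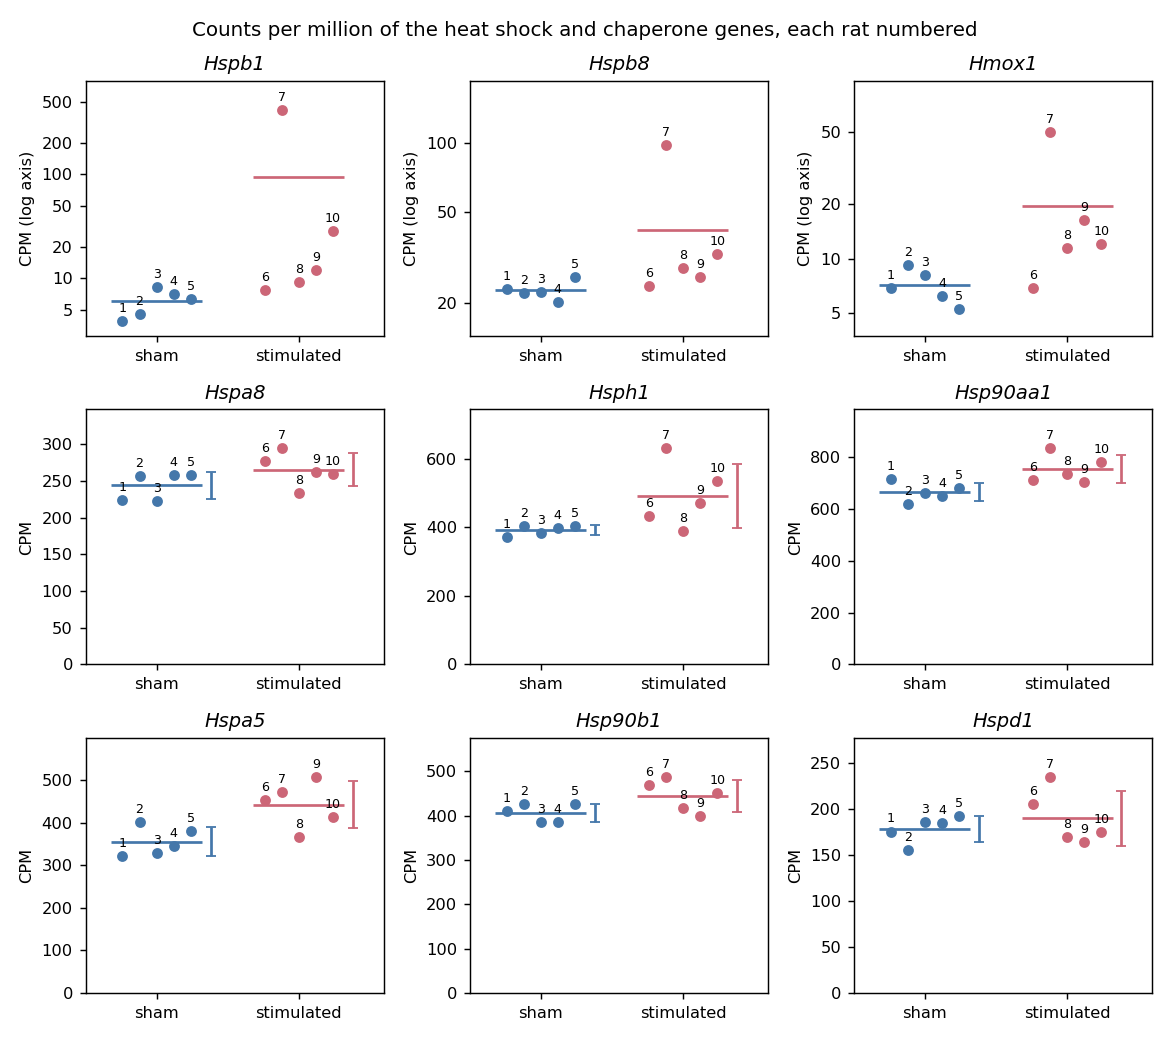
CPM of the 9 members with a row, 1 panel per gene, with each rat as a numbered point, horizontal lines at the group means and, in the panels with a linear axis, bars of 1 SD. The upper 3 panels have a logarithmic axis, where rat 7 stands at 415 CPM for Hspb1, 97.8 CPM for Hspb8 and 50.2 CPM for Hmox1.

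Hspb1 encodes the small heat shock protein also called Hsp27 (in rodents Hsp25), which guards actin filaments and prevents aggregation. Its level was 3.90, 4.50, 8.27, 7.11 and 6.29 CPM in sham rats 1 to 5, from 59 to 172 reads. In stimulated rats 6 to 10 it was 7.65, 414.9, 9.20, 11.9 and 28.6 CPM, from 169, 8935, 144, 234 and 554 reads. Rat 7 was far above every other animal, rat 10 came next, and 4 of 5 stimulated rats lay above all sham rats while rat 6 lay within their range.

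The mean of Hspb1 was 6.01 ± 1.81 CPM for sham rats and 94.4 ± 179 CPM for stimulated rats (SD, 5 rats a group). The fitted log2 fold change was 3.96 (SE 1.05, edgeR unadjusted p = 0.00207, adjusted p = 0.376), which is 15.6-fold. Rat 7 set most of this size, at 69.0 times the sham mean and 14.5 times the level of rat 10. Without rat 7 the log2 fold change was 1.23 (SE 0.345, edgeR unadjusted p = 0.00317, adjusted p = 0.601) and the stimulated mean 14.3 ± 9.66 CPM (SD, 4 rats). Over the alternatives that kept all 10 rats, the adjusted p-value of Hspb1 ranged from 0.0182 with the likelihood ratio test to 0.555 with limma-voom, whose log2 fold change was 2.12. In rat 7, 2 of the 22447 features had a larger ratio to the median of the other rats (with 1 CPM added to both): Trh, the precursor of thyrotropin-releasing hormone, at 438 CPM against 0.128 to 39.7 CPM, and Serpina3n, a secreted protease inhibitor of reactive astrocytes, at 54.5 CPM against 0 to 0.671 CPM. Both were named after their values were seen.

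Hspb8 encodes a small heat shock protein that works with Bag3 to hand damaged proteins to autophagy. Its level was 23.0, 22.3, 22.4, 20.2 and 26.1 CPM in sham rats and 23.8, 97.8, 28.6, 26.2 and 32.7 CPM in stimulated rats. As for Hspb1, rats 7 and 10 were the highest, and 4 of 5 stimulated rats exceeded every sham rat, rat 9 by less than the spread of the sham group. The mean was 22.8 ± 2.13 CPM for sham rats and 41.8 ± 31.5 CPM for stimulated rats (SD, 5 rats a group). The log2 fold change was 0.88 (SE 0.332, edgeR unadjusted p = 0.0196, adjusted p = 0.423), and 0.27 (SE 0.119, unadjusted p = 0.038) without rat 7. In rat 7, 145 features (0.646%) had a larger ratio to the other rats than Hspb8.

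Bag3, the co-chaperone that joins Hspb8 to Hsp70, stood at 16.6, 17.1, 15.0, 16.6 and 18.7 CPM in sham rats. In stimulated rats it stood at 17.2, 150.3, 22.5, 136 and 39.0 CPM, so that rats 7 and 9 were far above the rest and rat 6 lay within the sham range. Its log2 fold change was 2.12 (SE 0.513, edgeR unadjusted p = 0.00106, adjusted p = 0.376). Rat 9, which was high for Bag3, was near the other stimulated rats for Hspb1 and Hspb8. The related Cryab (alpha B-crystallin) and Hspb6 differed by 0.26 (SE 0.14) and 0.24 (SE 0.13) on the log2 scale, and neither passed an unadjusted p-value of 0.05.

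Hmox1 encodes heme oxygenase 1, which splits heme and is held down by the repressor Bach1 and driven by the oxidative stress factor Nrf2 (gene Nfe2l2). It stood at 6.92, 9.16, 8.16, 6.24 and 5.24 CPM in sham rats and 6.88, 50.2, 11.5, 16.4 and 12.0 CPM in stimulated rats. Rats 7, 8, 9 and 10 exceeded every sham rat and rat 6 did not. The mean was 7.15 ± 1.55 CPM for sham rats and 19.4 ± 17.5 CPM for stimulated rats (SD, 5 rats a group). The log2 fold change was 1.45 (SE 0.433, edgeR unadjusted p = 0.00485, adjusted p = 0.396) and 0.71 (SE 0.227, unadjusted p = 0.00798) without rat 7.

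The list of heme and oxidative stress genes had 22 tested genes, with a median log2 fold change of 0.15. At an unadjusted p-value under 0.05, where 9.86% of all features differed in either direction, 4 of the 22 (18.2%) were higher and 0 lower. Beside Hmox1 these were Srxn1 (sulfiredoxin, which repairs oxidized peroxiredoxins) with a log2 fold change of 0.94 (SE 0.268), Bach1 with 1.03 (SE 0.361) and Nfe2l2 with 0.44 (SE 0.175). Srxn1 was highest in rat 9 at 168 CPM, followed by rat 7 at 132 CPM, against 46.6 to 57.6 CPM in sham rats. The abundant Fth1, the heavy chain of the iron store ferritin, had a log2 fold change of 0.07 (SE 0.075).

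**Figure D2:**
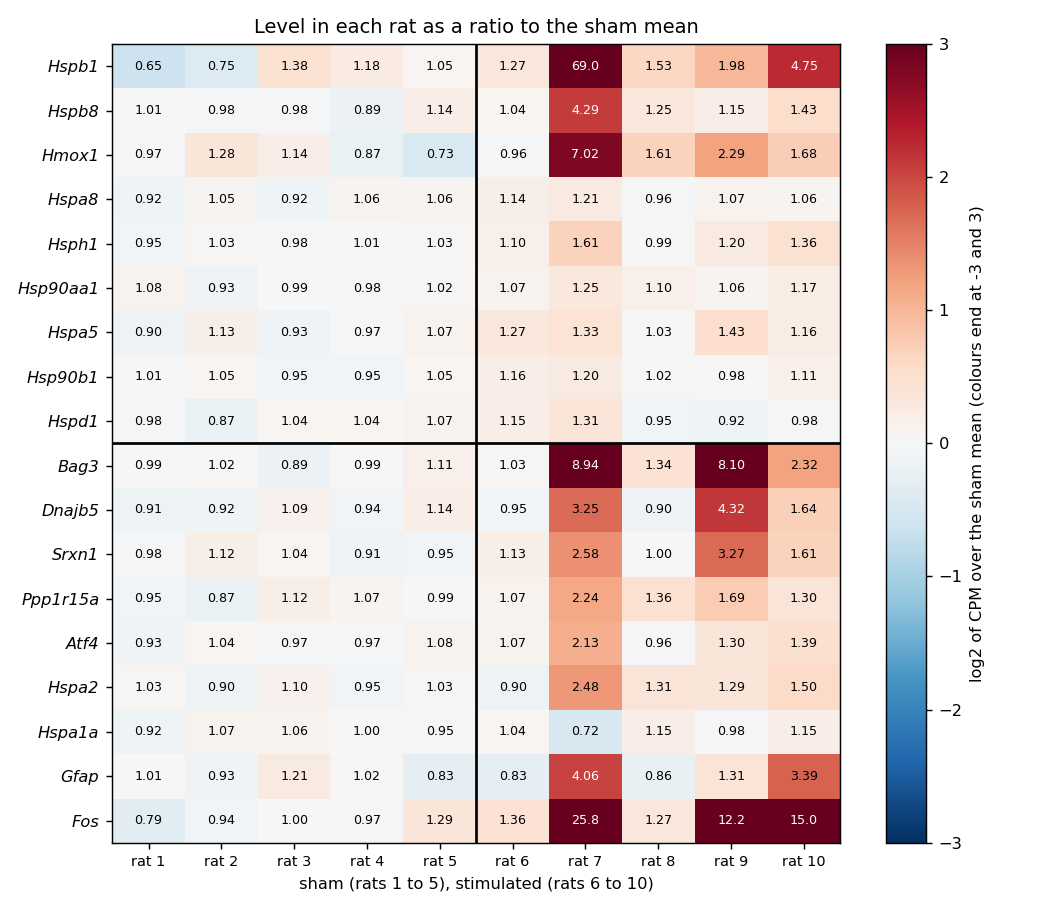
Level of each gene in each rat divided by the mean of the 5 sham rats, printed in each cell and coloured on a log2 scale, with members above the horizontal line and other chaperone, marker and immediate early genes below it. Hspb1 reaches 69.0 in rat 7 and 4.75 in rat 10, while Bag3, Dnajb5 and Srxn1 are high in rats 7 and 9.

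Among the Hsp70 and Hsp90 members of the cytosol, Hsph1 had the largest log2 fold change. It encodes Hsp110, the exchange factor that reloads Hsp70 with ATP. Its level was 371.6, 404, 384, 397 and 405 CPM in sham rats and 433, 631, 389.7, 472 and 535 CPM in stimulated rats. The sham rats lay close together, rats 7 and 10 were highest, and rat 8 was the stimulated rat within the sham range. The mean was 392 ± 14.3 CPM for sham rats and 492 ± 94.0 CPM for stimulated rats (SD, 5 rats a group). The log2 fold change was 0.33 (SE 0.111, edgeR unadjusted p = 0.0112, adjusted p = 0.409) and 0.21 (SE 0.088, unadjusted p = 0.0328) without rat 7.

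Hspa8, the Hsp70 protein that all cells make without stress, was 224, 256, 223, 257 and 258 CPM in sham rats and 277, 294, 233, 262 and 259 CPM in stimulated rats. The groups overlapped at rat 8, and the log2 fold change of 0.12 (SE 0.0833, edgeR unadjusted p = 0.169, adjusted p = 0.651) was under 2 times its error. Hsp90aa1, the stress-responsive Hsp90 of the cytosol, was 716, 619, 661, 649.8 and 680.4 CPM in sham rats and 713, 834, 735, 704 and 781 CPM in stimulated rats. Rats 7, 8 and 10 exceeded every sham rat. Its log2 fold change was 0.18 (SE 0.0725, edgeR unadjusted p = 0.0271, adjusted p = 0.446), and 0.13 (SE 0.0701, unadjusted p = 0.088) without rat 7. The unadjusted p-value of edgeR was also above 0.05 without rat 2 (0.0808), rat 4 (0.0592), rat 8 (0.0522) or rat 10 (0.0503), whereas the other 5 members under that threshold stayed under it whichever rat was left out. Among other settings it was 0.0509 with upper quartile factors and 0.0571 with the likelihood ratio and exact tests for Hsp90aa1, and limma-voom gave 0.0671 for Hspb1 and 0.0599 for Hspb8. Its constitutive relative Hsp90ab1 had a log2 fold change of 0.03 (SE 0.066).

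Hspa5, also called BiP or Grp78, is the Hsp70 protein of the endoplasmic reticulum, whose chaperones answer to the unfolded protein response. It was 321, 400.9, 329.99, 346 and 381 CPM in sham rats and 453, 474, 367, 508 and 413 CPM in stimulated rats. Here rat 9 and not rat 7 was the highest, and rat 8 alone among stimulated rats lay within the sham range. The mean was 356 ± 33.9 CPM for sham rats and 443 ± 54.8 CPM for stimulated rats (SD, 5 rats a group). The log2 fold change was 0.32 (SE 0.0975, edgeR unadjusted p = 0.00608, adjusted p = 0.396) and changed little without rat 7, at 0.28 (SE 0.1, unadjusted p = 0.015).

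Hsp90b1, the Hsp90 of the endoplasmic reticulum (Grp94), was 409.8, 426, 385, 385 and 426 CPM in sham rats and 469, 488, 416, 400.2 and 450.1 CPM in stimulated rats. Rats 8 and 9 lay within the sham range, and the log2 fold change was 0.13 (SE 0.0755, edgeR unadjusted p = 0.107, adjusted p = 0.58). Hspd1, the Hsp60 chaperonin of mitochondria, was 176, 156, 186, 185 and 192 CPM in sham rats and 206, 235, 169, 165 and 175 CPM in stimulated rats. Rats 6 and 7 exceeded the sham rats and the others lay among them. Its log2 fold change was 0.09 (SE 0.106, edgeR unadjusted p = 0.429, adjusted p = 0.822) and -0.01 (SE 0.0915) without rat 7.

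**Figure D3:**
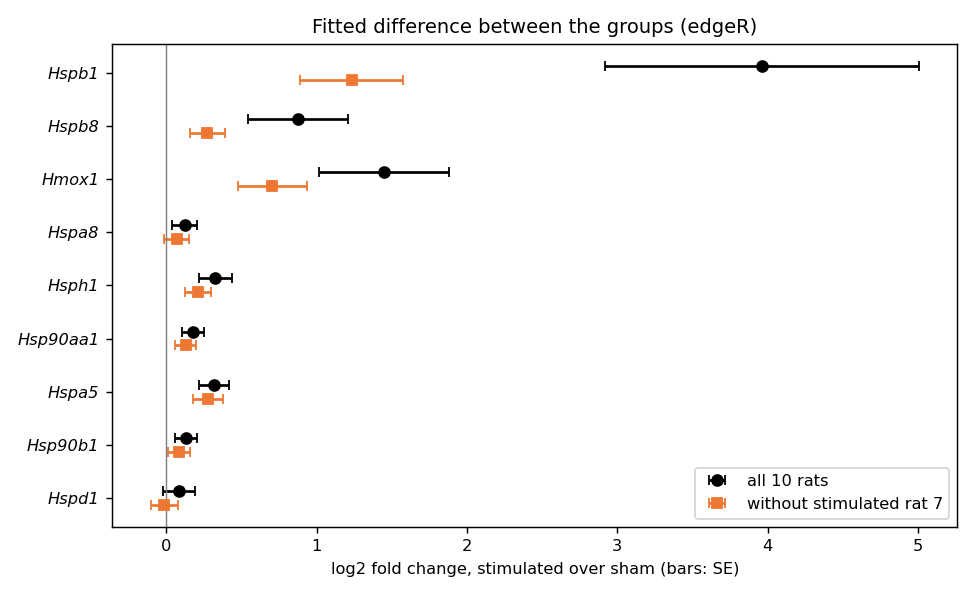
Log2 fold change of stimulated over sham rats for each member with a bar of 1 SE, for all 10 rats (circles) and without rat 7 (squares). Hspb1 moves from 3.96 to 1.23, Hmox1 from 1.45 to 0.71 and Hspb8 from 0.88 to 0.27, whereas Hspa5 moves from 0.32 to 0.28.

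The variation among rats was set out as the SD of log2 CPM in stimulated rats divided by that in sham rats. A two-sided permutation test was run on values centred on their group means. It is called exact because every assignment of the rats was counted. Values centred in this way are not fully exchangeable, so its p-values are approximate. The ratio was 6.30 for Hspb8 (exact permutation p = 0.0317), 5.32 for Hspb1 (p = 0.0397, exact) and 5.07 for Hsph1 (p = 0.0317, exact), so 3 of 9 members differed in spread at an unadjusted p-value under 0.05. Over all features 2030 (9.04%) did, 1841 of them with the larger spread in stimulated rats and 189 with the smaller, and the median ratio was 1.37. After adjustment over all features 0 passed, and the adjusted values of the members ran from 0.502 to 0.9. The ratio for Hmox1 was 3.40 (exact permutation p = 0.27), and for Hspa8, Hsp90aa1 and Hspa5 it was 1.13, 1.31 and 1.34. Leaving out single rats took Hspb1 from 1.88 to 6.46 and Hspb8 from 1.48 to 10.2, in each case lowest without rat 7. Hspb1 no longer passed the threshold without any 1 of rats 4 to 9, Hspb8 without any 1 of rats 1, 2, 3, 7 and 8, and Hsph1, at a ratio of 3.62 to 7.66, without any 1 of rats 7, 8 and 10 (exact permutation p up to 0.444).

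Of 36 pairs of members, correlated over the 10 rats on log2 CPM, 5 are given in full. They are Hspb1 with Hspb8 and the pairs whose Spearman rho had an adjusted permutation p-value under 0.05. They therefore do not stand for all 36. Hspb1 and Hspb8 had Pearson r = 0.96 (permutation p = 0.0016, adjusted over the 36 pairs 0.0193) and Spearman rho = 0.77 (permutation p = 0.0129, adjusted 0.0928). Without rats 7 and 10, which lay farthest from the median of Hspb1, r was 0.44, so the relation rested on those rats. Without the same rats r went from 0.92 to 0.62 for Hspb1 with Hsph1 and from 0.91 to 0.58 for Hspb1 with Hmox1. Within the groups, with values centred on the group means, Hspb1 and Hspb8 had r = 0.95.

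For the other 4 pairs r was also computed without rats 7 and 10. The permutations shuffled rats across both groups, so a group difference that both genes share also lowers these p-values. With values centred on the group means r was 0.76 for Hspa5 with Hspa8, 0.67 for Hspa8 with Hsph1 and 0.75 for Hspb8 with Hsp90aa1. Hspa5 and Hspa8 had r = 0.81 (permutation p = 0.00466, adjusted 0.028) and rho = 0.89 (permutation p = 0.00111, adjusted 0.0133), and r = 0.88 without rats 1 and 9, the farthest from the median of Hspa5, 0.64 without rats 1 and 3, the farthest for Hspa8, and 0.77 without rats 7 and 10. Hspa8 and Hsph1, the Hsp70 protein and its exchange factor, had r = 0.76 (permutation p = 0.00863, adjusted 0.0282) and rho = 0.93 (permutation p = 0.00043, adjusted 0.011), and r = 0.72 without rats 1 and 3, 0.60 without rat 7 and 0.75 without rats 7 and 10. Hspa5 and Hsph1 had r = 0.73 (permutation p = 0.0136, adjusted 0.0377) and rho = 0.92 (permutation p = 0.00061, adjusted 0.011), and r = 0.77 without rats 1 and 9 and 0.97 without rats 7 and 10, but r = 0.48 with values centred on the group means. Hspb8 and Hsp90aa1 had r = 0.82 (permutation p = 0.00037, adjusted 0.00846) and rho = 0.88 (permutation p = 0.00155, adjusted 0.0139), and r = 0.82 without rat 7 and 0.68 without rats 7 and 10.

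**Figure D4:**
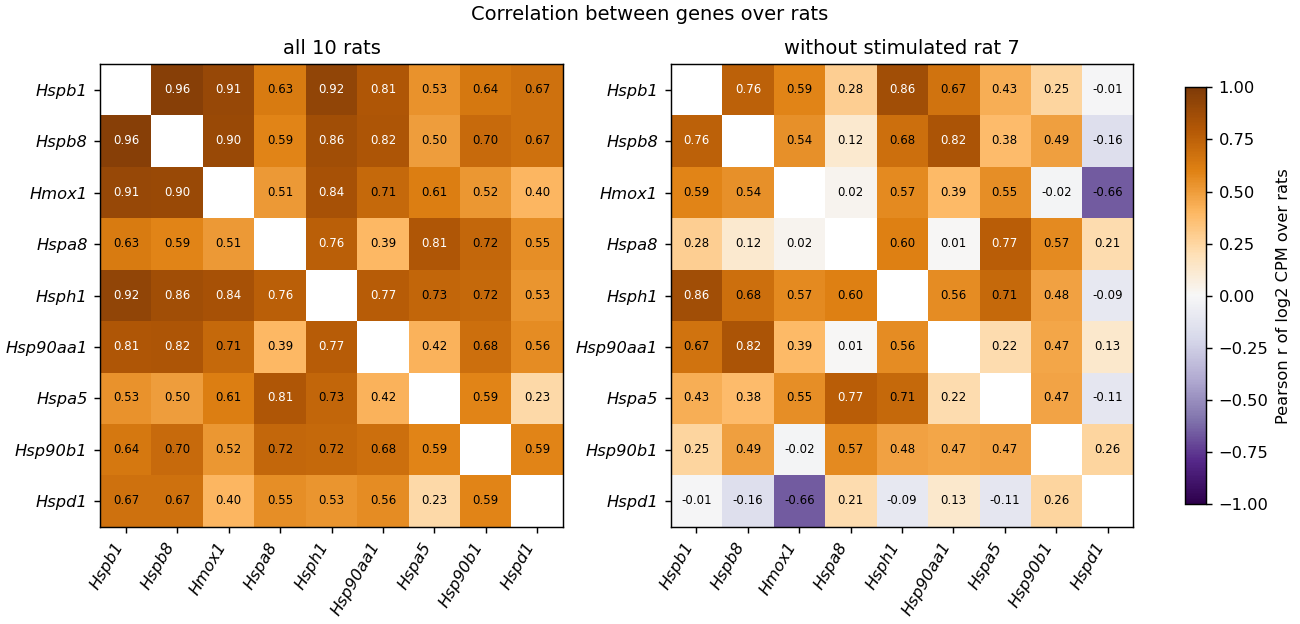
Pearson r of log2 CPM between each pair of members over all 10 rats (left) and over 9 rats without rat 7 (right), coloured from -1 to 1. Hspb1 and Hspb8 change from 0.96 to 0.76 and Hspb1 and Hspd1 from 0.67 to -0.01, while Hspa5 and Hspa8 change from 0.81 to 0.77.

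The other genes of the chaperone network were taken as 11 lists of 173 genes, of which 151 were tested. Of these, 15 were higher and 1 lower at an unadjusted p-value under 0.05, which is 10.6% in either direction, against 9.86% of all features. Without the members it was 9 higher and 1 lower of 142 genes (7.04%), and 0 passed adjustment. The median log2 fold change was 0.05 in these 142 genes and 0.01 in all features. Rat 7 was the highest rat for 67 of the 151 genes (44.4%), against 17.7% of all features.

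Of 5 tested small heat shock proteins 2 were higher, Hspb1 and Hspb8, and the median log2 fold change was 0.26. Of 13 tested Hsp70 and Hsp110 genes 4 were higher: Hspa5 and Hsph1, with Hspa2 at a log2 fold change of 0.58 (SE 0.206) and Hspa13, a microsomal relative, at 0.31 (SE 0.119). Hspa2 stood at 58.1 CPM in rat 7 against 21.1 to 25.7 CPM in sham rats. Hspa1a, the classical heat-inducible Hsp70 gene, was named after its values were seen. It stood at 14.7, 17.2, 17.0, 16.0 and 15.3 CPM in sham rats and 16.7, 11.6, 18.5, 15.7 and 18.5 CPM in stimulated rats, lowest in rat 7, with a log2 fold change of 0.01 (SE 0.134). Reads of Hspa1a cannot be told from its near-identical copy Hspa1b, for which no row was matched, so this value is uncertain.

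Among 36 tested J-domain proteins 1 was higher and 1 lower at an unadjusted p-value under 0.05, with a median log2 fold change of 0.01. Dnajb5, a relative of Dnajb1, was 92.9 to 117 CPM in sham rats and 97.6, 333, 92.6, 443 and 168 CPM in stimulated rats, high in rats 7, 9 and 10, with a log2 fold change of 1.15 (SE 0.361, edgeR adjusted p = 0.396). Dnajc17, a nuclear J-domain protein, was 7.35 to 11.6 CPM in sham rats and 6.04 to 6.92 CPM in stimulated rats. Its groups did not overlap and its log2 fold change was -0.36 (SE 0.152, edgeR adjusted p = 0.454). It was the only one of the 151 genes with separate groups, a share no larger than the 1.29% of all features.

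Among 17 tested Hsp90 genes and co-chaperones only Hsp90aa1 was higher, and among 11 Hsp70 co-chaperones only Bag3. Of 18 tested chaperones and folding enzymes of the endoplasmic reticulum only Hspa5 was higher, with a median log2 fold change of 0.08, and the abundant Calr and Canx both had 0.05 (SE 0.0764 and 0.0855). Of 15 tested regulators and targets of the unfolded protein response 2 were higher: Ppp1r15a (Gadd34, which restarts translation) at 0.62 (SE 0.172) and the transcription factor Atf4 at 0.45 (SE 0.173). Of 12 chaperonin genes, 4 prefoldin genes and 4 heat shock factor genes 0 passed the threshold. Hsf1 itself had a log2 fold change of 0.21 (SE 0.177).

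**Figure D5:**
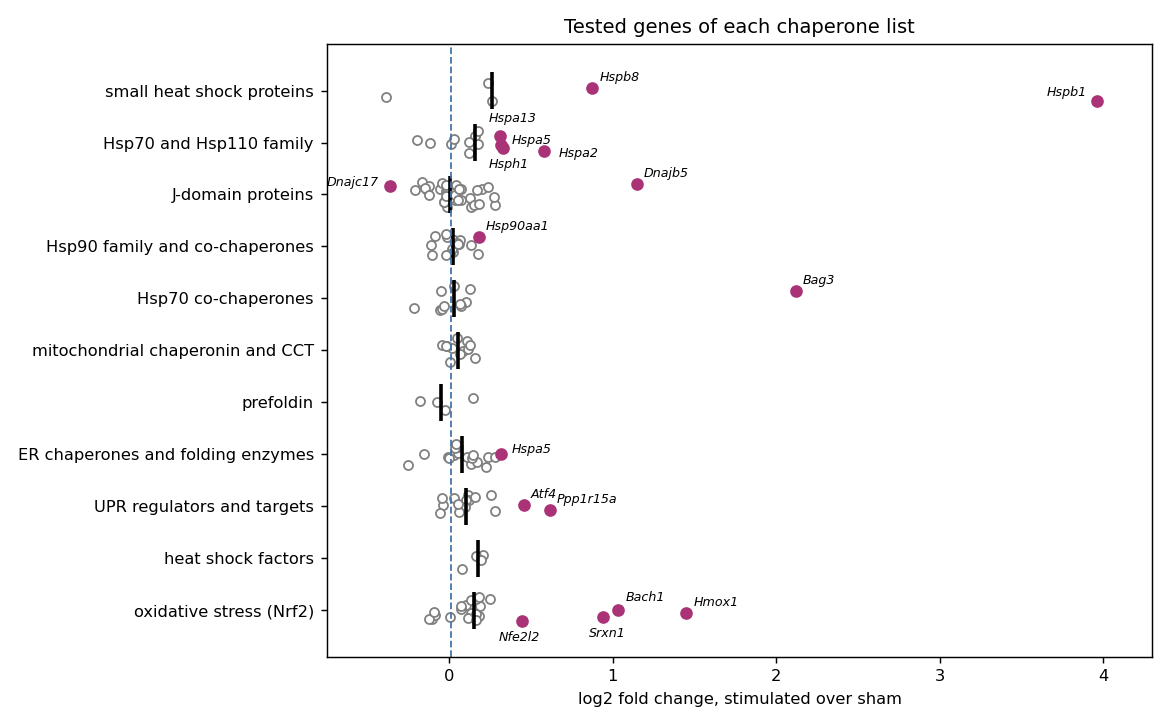
Log2 fold change of stimulated over sham rats for every tested gene of the 11 chaperone lists, with genes at an unadjusted p-value under 0.05 filled and named, a black bar at the median of each list and a dashed line at 0.01, the median of all features. ER stands for endoplasmic reticulum and UPR for unfolded protein response; Hspa5 is in 2 lists.

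By likeness over the 10 rats, among 11200 features with a symbol and a mean of at least 1 CPM, the closest to Hspb1 were Tubb6, Tmem100 and Cnn3 (r = 0.99, 0.98 and 0.98). Tubb6, a beta tubulin, was 102.8 CPM in rat 7 and 23.8 CPM in rat 10 against 9.01 to 12.3 CPM in the others. Those close to Hspb8 included Tmbim1 and Adamts1 (r = 0.98 each), and the closest to Hmox1 were Niban2, Ext1 and Hs2st1 (r = 0.98, 0.97 and 0.96). The closest to Hsph1 were Atf4, Plat and Atxn10 (r = 0.98, 0.97 and 0.97), and to Hsp90aa1 Fermt2, Clk2 and Pphln1 (r = 0.95, 0.94 and 0.93). For Hspa5 they were Dop1b, Dusp11 and Tbk1 (r = 0.97, 0.93 and 0.92), for Hspa8 Actc1, Gfpt2 and Dusp1 (r = 0.94, 0.92 and 0.91), and for Hsp90b1 Bfar, Socs2 and Dnajc3 (r = 0.89, 0.89 and 0.88), where Dnajc3 is a co-chaperone of the same compartment. The closest to Hspd1 was Cct5, a subunit of the chaperonin of the cytosol, followed by Sqle and Pak1 (r = 0.94, 0.94 and 0.93). These values measure likeness, share the same libraries, and carry no test.

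Marker lists of other cells differed in how many genes passed an unadjusted p-value under 0.05, which 9.86% of all features did in either direction. Of 9 tested astrocyte markers 5 were higher and 0 lower at an unadjusted p-value under 0.05. Their summed level was 4660 to 5279 CPM in sham rats and 4677, 9791, 4899.6, 5942 and 9002 CPM in rats 6 to 10. Without Gfap it was 3014 to 3669 CPM in sham rats and 3351, 3322, 3525, 3864 and 3605 CPM in rats 6 to 10. In this sum, which the abundant genes set, rats 7 and 10 lay within the sham range. The mean log2 level of all 9 markers, where each gene weighs the same, was 8.10 to 8.27 log2 CPM in sham rats. In rats 6 to 10 it was 8.17, 8.52, 8.29, 8.49 and 8.60 log2 CPM. Gfap, the filament protein of astrocytes, was 1327 to 1927 CPM in sham rats and 6469 and 5396 CPM in rats 7 and 10, the rats that were highest for Hspb1, Hspb8 and Hsph1. Vim, another filament protein, was 250.4 and 170.4 CPM in those rats against 49.4 to 72.3 CPM in sham rats. Aqp4 (162.3 and 192.1 against 88.2 to 120.6 CPM) and Slc1a3 (748.6 and 686.7 against 515.1 to 628.5 CPM) were also above every sham rat in both. Of the other astrocyte markers 3 were below every sham rat in rat 7: Aldoc at 742 against 999 to 1306 CPM, Aldh1l1 at 16.4 against 40.5 to 50.9 CPM and Gja1 at 271 against 286 to 355 CPM.

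Of 10 tested markers of endothelial cells and pericytes 6 were higher, with summed levels of 282 to 303 CPM in sham and 315 to 569 CPM in stimulated rats. Of 12 microglial markers 2 were higher, at 347 to 444 CPM in sham and 376 to 590.1 CPM in stimulated rats. Of 5 choroid plexus markers 1 was higher, at 3.43 to 18.0 CPM in sham and 7.28 to 34.5 CPM in stimulated rats. For 8 oligodendrocyte, 8 neuronal and 5 red blood cell genes 0 passed, with summed levels of 2801 to 4040 and 2309 to 3873 CPM, 4055 to 4430 and 3899 to 4644 CPM, and 309.6 to 788 and 385 to 719.8 CPM in sham and stimulated rats. The summed immediate early genes were 169 to 216 CPM in sham rats and 223, 781, 163, 1766 and 733 CPM in rats 6 to 10, and Fos was 106, 50.3 and 61.7 CPM in rats 7, 9 and 10 against 3.26 to 5.61 CPM in the others. No listed marker with a row was at 0 in all rats. The part of these cells and of recent neuronal activity in the differences of the chaperone genes was not tested.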

How the data were processed

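The deposited values were raw counts: per the study's methods the authors aligned single 36-cycle reads to RN4 with BWA and made counts for Ensembl genes, although the deposited rows carry RefSeq transcripts. The handling of shared reads and of strand is not given in the sources used here, so Hsp90aa1, Hspa8, Hspd1 and Hspa1a, which have close copies or pseudogenes, are uncertain. Unaligned reads had a row of their own, which was used only for their share of the reads. Symbols came from the RefSeq table of GRCr8 by transcript. The labels gave groups and no batch.

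Features with a summed count below the 30th percentile (46 counts) were left out. Groups were compared with edgeR 4.0.16 (quasi-likelihood test, TMM factors, Benjamini-Hochberg over all tested features) in R 4.3.3. Log2 CPM used a prior count of 2. Spread was compared by exact permutation (all assignments of the rats, smallest p 0.00794), and correlations with 100000 resamples. Promoter motifs were searched as exact letters. Scripts were tested on simulated data. Alternatives were other factors, filters, prior counts and tests (limma 3.58.1, DESeq2 1.42.0) and leaving out each rat. Python tools were numpy 2.4.6, pandas 2.3.3, scipy 1.17.1 and matplotlib 3.10.9.

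The members, gene lists and markers were chosen with earlier results of these data known. Named genes were the members, per list up to 4 with the lowest p and up to 2 with the highest mean CPM, and the 3 features most alike to each member. Of the last, 1 is not reported here. Lists and motifs are given as counts and medians without a test.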

Additional observations from a re-analysis of the deposited data

Results flagged for a closer look

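Hspb8 in the stimulated group was flagged because rat 7 lay far from the other 4 stimulated rats. On the log2 CPM scale its gap to the nearest of them was 0.774 of the range of the group, above Dixon's critical value of 0.71 for 5 samples. It was 1 of 18 groups tested (9 members in 2 groups), and chance alone flags about 1 group in 20. In CPM rat 7 stood at 97.8 and the other stimulated rats at 23.8 to 32.7.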

How the results depend on the processing

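No paired analysis was possible because the replicate numbers follow the order of the samples and tie no sham rat to a stimulated rat. The count of features at an adjusted p-value under 0.05 moved from 0 to 119 with edgeR's likelihood ratio test, 90 with its exact test and 33 with DESeq2, and the cause was not tested. Hspb1 passed with the first 2 of these and DESeq2 gave it no p-value, at a log2 fold change of 3.96. Leaving out 1 rat at a time gave 1066 to 1858 features higher and 536 to 1287 lower (1287 without rat 6, 1241 without rat 8) at an unadjusted p-value under 0.05, 12 to 25 chaperone network genes (25 without rat 6), 1330 to 2476 features that differed in spread (1330 without rat 7) and 0 to 0 that passed adjustment. The log2 fold change of Hspd1 ranged from -0.014 to 0.13, and the ratio of the SDs from 0.754 to 1.30 for Hspa8, 0.918 to 1.69 for Hspa5 and 0.863 to 1.79 for Hsp90aa1, so that each changed direction for at least 1 rat left out. The spread of Hspd1 differed without rat 2 (4.11, exact permutation p = 0.00794) and that of Hsp90b1 without rat 10 (1.88, p = 0.0397, exact). No other log2 fold change of a member changed direction under any alternative, and 38 of the Pearson correlations under an alternative moved by 0.2 or more. With 5 rats a group, a difference of the size seen in Hspd1 was within its error.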
